A study of Rattus norvegicus with 4 samples.

Results

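Amino acid and peptide carriers of the rat small intestine were described from their probes on a 1-colour array. Members were the gene probes whose name on the array, after removal of the endings _predicted and _mapped, began with Slc1a, Slc3a, Slc6a, Slc7a, Slc15a, Slc36a, Slc38a or Slc43a, the 8 solute carrier families taken here. The array held 67 such probes for 54 genes, among 41012 gene probes in all. Of these, 43 probes for 35 genes were well above background, by the scanner software's flag, on at least 2 of the 4 arrays and were kept, as were 28415 probes over the whole array. Control rats drank tap water, and compost rats were given tap water holding compost extract at 1.0% (v/v), a heated aerobic dilution of fermented compost, for 12 weeks from 3 weeks of age. All were male Wistar rats, an outbred stock, with 2 rats per group and 1 array per rat, and the tissue was small intestine without Peyer's patches, whose segment the labels do not name.

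Dietary protein reaches the enterocyte as free amino acids and as short peptides. Carriers in the brush border take these up, driven by sodium, by protons or by exchange, and other carriers in the basolateral membrane pass them to the blood. Several carriers work as pairs of a heavy chain, which brings the complex to the membrane, and a light chain, which does the transport. A further set supplies the cell's own metabolism, above all in dividing cells and lymphocytes, and members of the Slc6 family also carry neurotransmitters, creatine and osmolytes.

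The 4 arrays lay on 1 slide, control rats at positions 1 and 2 and compost rats at positions 3 and 4, so that position and group cannot be told apart. By the software's flag 66.5% to 71.0% of the gene spots on an array exceeded background, and Pearson's r over the kept probes, which are not independent, was 0.981 to 0.988 between arrays. Levels are log2 intensities relative to the array's own 75th percentile, so that 0 is that percentile, and levels of different probes are not compared. The tissue label was borne out by enterocyte markers such as Fabp2, a fatty acid-binding protein, at 8.42 to 8.94. Vil1, the brush border protein villin, was at 6.14 to 6.67, and Cdh17 at 6.73 to 7.04. The same list also held Lct at -6.64 to -2.99, Alpi at -7.48 to -1.87 and Slc2a2 at -3.01 to 0.95. The 14 enterocyte markers had a median difference of -0.61, compost minus control (-0.20 without compost replicate 1), with 13 below 0. The 9 general epithelial markers had a median of 0.09. Lct and Alpi, both in the enterocyte list, were well above background in both control rats and in neither compost rat. They were thus kept through the control group alone. Their differences of -2.66 and -4.13 were -0.78 and -1.34 with normexp background correction. That correction added an offset of 50 to each intensity before the log, which by itself draws the differences of dim probes towards 0. Since this is whole tissue, fewer cells of a type and less RNA per cell cannot be told apart.

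No carrier passed limma's test: the adjusted p was 0.9999 for each of the 35 genes, and 0% of the 28415 probes passed. An unadjusted p under 0.05 was found for 2 carriers, Slc7a3 and Slc1a5, both higher in compost, and for 3.21% of all probes, 1.41% higher and 1.8% lower. The differences were 19 above and 16 below 0, with a median of 0.04 and quartiles of -0.20 and 0.29, against a median of -0.02 and quartiles of -0.18 and 0.13 over all kept probes. In 9 carriers (25.7%) both compost rats exceeded both control rats, where 12.4% of all probes did, and in 3 (8.57%) both were lower than both control rats, where 15.5% of all probes did. With 2 rats a group, the smallest two-sided exact permutation p is 0.333, so the separation of a single gene is a description. The compost rats differed more from each other than the control rats did in 23 of 35 carriers (65.7%) and in 63.7% of all probes.

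**Figure D1:**
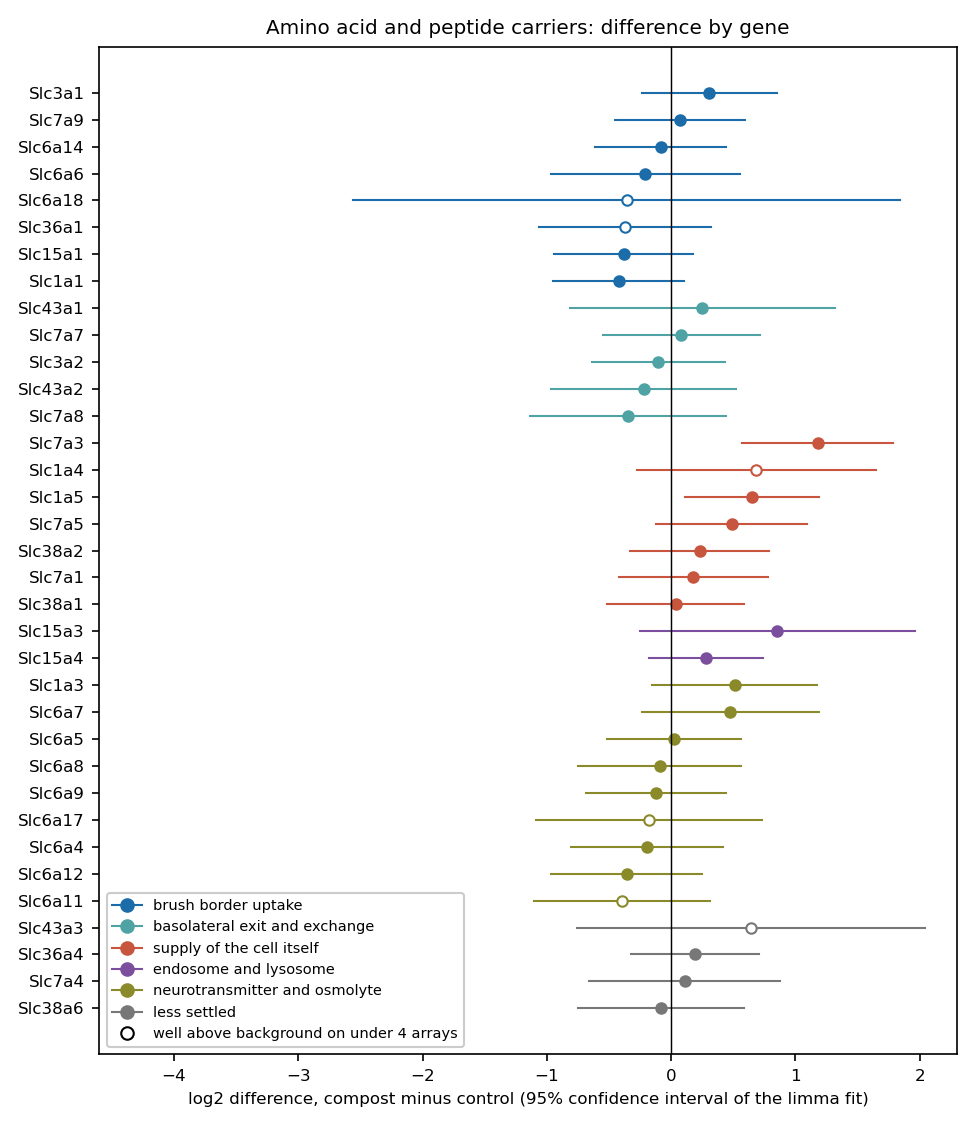
Log2 difference, compost minus control, of each of the 35 carrier genes (points) with its 95% confidence interval from the limma fit (lines), grouped and coloured by role. Open points mark genes well above background on under 4 arrays. The 7 carriers that supply the cell itself lie above 0, while 6 of 8 brush border carriers lie below it. Roles were assigned with the values known, so these counts support no direction. Only the intervals of Slc7a3 and Slc1a5 leave out 0.

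Among the brush border carriers, the peptide carrier and the acidic amino acid carrier were lower in both compost rats, while the cystine and dibasic amino acid system was not. Slc15a1 encodes PepT1, the proton-driven carrier of dipeptides and tripeptides. Its level was 6.92 and 6.70 in the control rats and 6.27 and 6.58 in the compost rats. Both compost rats were under both control rats, by a margin of 0.12 between the nearest, and the difference was -0.38 ± 0.21 SE (95% interval -0.94 to 0.18, a compost level of 0.768 times the control level). Slc1a1, the sodium-driven carrier of glutamate and aspartate, measured by 1 probe spotted 10 times per array, stood at -0.90 and -1.20 in control and -1.41 and -1.53 in compost. The groups did not overlap here either, and the difference was -0.42 ± 0.20 (-0.95 to 0.11).

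Slc7a9, the light chain that exchanges cystine and dibasic amino acids across the brush border, was at 5.88 and 6.18 in control and at 6.07 and 6.13 in compost, with both compost values inside the control range. Its difference was 0.07 ± 0.20 (-0.45 to 0.59). Its heavy chain Slc3a1 was at 4.64 and 4.51 in control and 4.72 and 5.05 in compost, higher in both compost rats by 0.31 ± 0.21 (-0.24 to 0.85), and by 0.14 without compost replicate 2. The partners of this pair thus had overlapping intervals, and the difference between them was not tested.

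The remaining brush border carriers had groups that overlapped. Slc36a1, a proton-driven carrier of small neutral amino acids, was at -4.42 and -4.62 in control and -4.61 and -5.18 in compost. It was not well above background in compost replicate 2, and its difference of -0.37 ± 0.26 was -0.17 with normexp background correction. Slc6a14, which takes up neutral and cationic amino acids, was at -1.67 and -1.57 against -1.56 and -1.85 (-0.08 ± 0.20), and the taurine carrier Slc6a6 was at -0.54 and 0.04 against -0.66 and -0.25 (-0.21 ± 0.29). Slc6a18, a neutral amino acid carrier best known from the kidney, was well above background in 1 rat of each group and ranged from -6.64 to -4.30, both extremes being compost rats. Over the 8 brush border genes the median difference was -0.28, with 6 below 0. It was 0.01 without control replicate 2. Beside it stood the enterocyte markers at -0.61 and 7 markers of the proximal small intestine at a median of -0.27. Lct, Apoa4, Slc2a5 and Fabp1 are in both of these lists, and Lct was kept through the control group alone. A list of 9 markers drawn up as distal was at 0.05, with 5 above 0, but it includes Gip (-0.72), a hormone of the proximal small intestine. Its markers Fgf19 (-1.02) and Cubn (-0.82) were lower still. The median of this list was 0.16 without compost replicate 1 and -0.16 without compost replicate 2. The part of these markers in the carriers' median was not tested. The carriers' roles were assigned by textbook function with the values known.

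The imino acid carrier Slc6a20a stood on the array under an older name, Xtrp3, and so was not a member. It was at 0.24 and 0.55 in control and 0.12 and 0.19 in compost, a difference of -0.24 ± 0.20 with both compost rats below both control rats. No kept probe was named Slc6a19, the main brush border carrier of neutral amino acids, and its level is not given here.

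**Figure D2:**
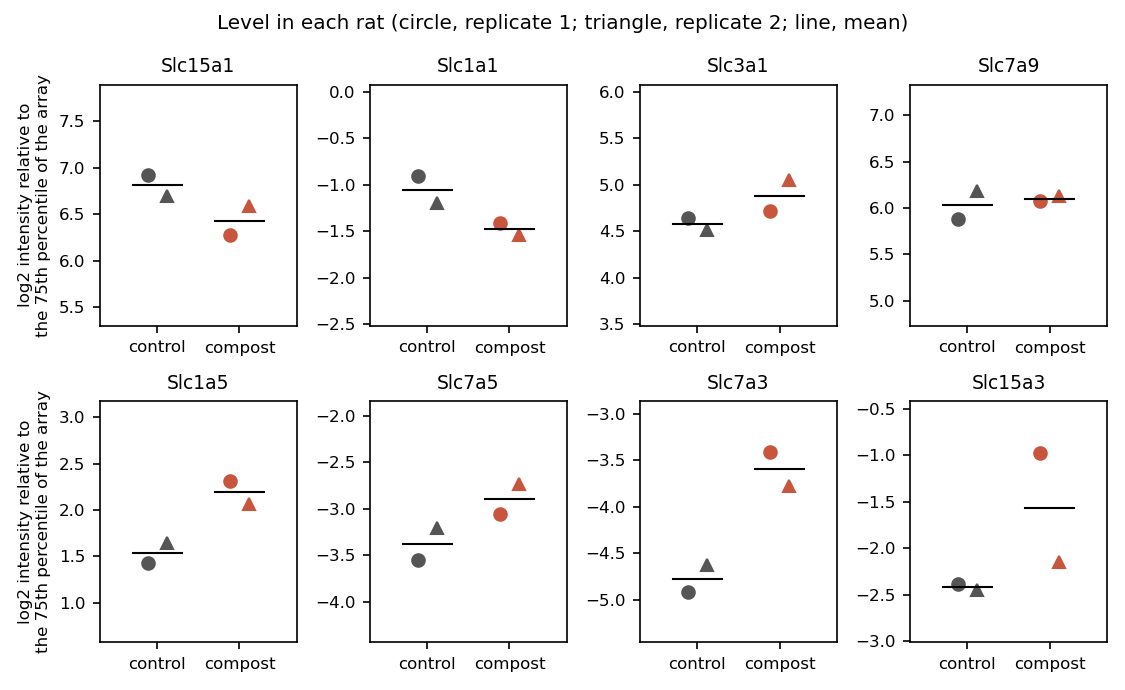
Log2 intensity relative to the array's 75th percentile (vertical axis) of 8 carriers in each rat, by group. Circles are replicate 1, triangles replicate 2 and lines the group means, and every panel spans the same number of log2 units. Both compost rats lie below both control rats in Slc15a1 and Slc1a1 and above them in Slc3a1, Slc1a5, Slc7a5, Slc7a3 and Slc15a3, whereas in Slc7a9 the groups overlap.

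None of the 5 carriers of basolateral exit and exchange separated the groups. Slc3a2, the heavy chain shared by several basolateral exchangers, was at 4.00 and 3.70 in control and 3.82 and 3.67 in compost (-0.10 ± 0.20, interval -0.64 to 0.43). Of its light chains, Slc7a7, which exports cationic amino acids in exchange for neutral ones, was at 0.86 and 0.87 against 1.21 and 0.70 (0.08 ± 0.24). Slc7a8, an exchanger of neutral amino acids, was at 3.81 and 3.40 against 3.57 and 2.95 (-0.34 ± 0.30, and -0.031 without compost replicate 2). Compost replicate 2 was the lowest rat in all 3 of these genes.

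The uniporters of large neutral amino acids were likewise mixed. Slc43a2 had 2 probes, at 5.38 and 4.70 against 4.87 and 4.77 (-0.22 ± 0.28) and at -0.33 and -0.10 against -0.16 and -0.97 (-0.35 ± 0.33). Slc43a1 was at -3.26 and -3.42 in control and -2.54 and -3.65 in compost, so that the compost rats were the highest and the lowest of the 4. Its difference of 0.25 ± 0.41 was -0.30 without compost replicate 1 and 0.81 without compost replicate 2.

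All 7 carriers that supply the cell's own amino acids had differences above 0, and in 4 of them both compost rats exceeded both control rats, against 12.4% of all probes. The genes were put in this group with the values known, so the counts support no direction. Slc1a5, Slc7a5, Slc7a1 and Slc38a2 were also named as dietary carriers of the small intestine, so the roles are not sharply apart. The median of the 7 was 0.49, against 0.04 for all 35 carriers and -0.02 for all probes. It was 0.21 to 0.66 without 1 rat and 0.21 with normexp background correction. Slc1a5, also known as ASCT2, a glutamine and neutral amino acid exchanger of dividing cells, was at 1.43 and 1.65 in control and at 2.32 and 2.06 in compost. The nearest rats of the groups were 0.41 apart, and the difference was 0.65 ± 0.20, or 1.57-fold (interval 0.11 to 1.19 in log2 units; unadjusted p = 0.0269, adjusted p = 0.9999 by limma). With normexp background correction it was 0.63, and without 1 rat it was 0.52 to 0.78.

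Slc7a3, a carrier of cationic amino acids such as arginine, had the largest difference of the 35 carriers. It was at -4.92 and -4.63 in control and at -3.41 and -3.78 in compost, well above background in all 4 rats. The nearest rats were 0.85 apart, and it was the only carrier with a gap of at least 0.5, where 0.859% of all probes had one in that direction and 0.788% in the other. The difference was 1.18 ± 0.23, or 2.27-fold (0.57 to 1.79; unadjusted p = 0.0046, adjusted p = 0.9999 by limma), and with normexp background correction it was 0.36.

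Slc7a5, or LAT1, the light chain for large neutral amino acids that pairs with Slc3a2, was at -3.55 and -3.21 in control and -3.05 and -2.73 in compost, higher in both compost rats by 0.49 ± 0.23 (-0.12 to 1.10). The difference was 0.28 with normexp background correction. Slc1a4, an exchanger of alanine, serine and cysteine, was at -6.35 and -5.41 against -5.07 and -5.33, higher in both compost rats by a margin of 0.08. It was well above background in only 1 rat of each group, and its difference of 0.69 ± 0.36 was 0.09 with normexp background correction. The remaining supply carriers had overlapping groups: the cationic amino acid carrier Slc7a1 was at 0.25 and 0.65 against 0.52 and 0.74 (0.18 ± 0.23), the sodium-coupled glutamine carrier Slc38a1 at -1.09 and -0.93 against -1.14 and -0.81 (0.04 ± 0.21) and its relative Slc38a2 at 2.49 and 2.61 against 2.60 and 2.96 (0.23 ± 0.21). The second probe of Slc38a2 gave 0.27 ± 0.20, with both compost rats higher by a margin of 0.04, and that of Slc7a1 gave 0.01 ± 0.26.

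Several supply carriers are known targets of the transcription factor ATF4, which binds amino acid response elements when amino acids run short. The core of that element, TGATGNAA, was searched on both strands of the RefSeq promoter windows of GRCr8, which run from 250 bases before to 50 after a gene's start. The table held 31 windows for 28 of the 35 carriers. Slc7a3, Slc1a5 and Slc15a3 were among the carriers without a window, so their promoters were not searched. The core was found in 3 windows (9.68%), against 3.98% of the 33469 windows of all genes, and the longer motif of HNF1, a factor of intestinal absorptive genes, was in 0 of the 31 and in 0.0448% of all. The 3 windows are printed because they let the element be set beside the levels above, with the core in capitals. They lie at chr14:98761513-98761812 on the minus strand for Slc1a4, where the core is on the opposite strand and begins at position -235 from the start, at chr7:129681352-129681651 on the minus strand for Slc38a1, where it begins at -142, and at chr12:11664238-11664537 on the plus strand for Slc7a1, where it begins at -30.
Slc1a4 promoter: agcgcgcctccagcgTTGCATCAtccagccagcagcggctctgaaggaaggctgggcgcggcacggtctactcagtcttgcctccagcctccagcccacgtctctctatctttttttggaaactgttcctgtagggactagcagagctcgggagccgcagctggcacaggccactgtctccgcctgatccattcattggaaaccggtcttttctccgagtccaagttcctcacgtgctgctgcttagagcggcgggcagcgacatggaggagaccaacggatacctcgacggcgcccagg
Slc38a1 promoter: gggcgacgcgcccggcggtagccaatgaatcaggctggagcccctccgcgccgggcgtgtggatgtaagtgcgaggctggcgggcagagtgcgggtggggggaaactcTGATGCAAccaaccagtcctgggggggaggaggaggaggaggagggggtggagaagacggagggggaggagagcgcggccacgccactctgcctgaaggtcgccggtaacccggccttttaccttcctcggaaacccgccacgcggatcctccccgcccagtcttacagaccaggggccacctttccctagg
Slc7a1 promoter: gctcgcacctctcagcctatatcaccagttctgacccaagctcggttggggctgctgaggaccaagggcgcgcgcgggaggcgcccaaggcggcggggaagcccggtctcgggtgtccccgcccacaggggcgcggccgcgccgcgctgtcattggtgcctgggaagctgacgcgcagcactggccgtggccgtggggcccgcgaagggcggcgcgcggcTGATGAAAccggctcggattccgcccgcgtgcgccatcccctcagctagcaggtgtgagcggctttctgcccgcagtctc
The carriers with the core had differences of 0.69, 0.04 and 0.18, in that order. Slc7a5 and Slc38a2, whose windows held no match, had 0.49 and 0.23. The supply carriers Slc7a3 and Slc1a5, at 1.18 and 0.65, had no window to search. A match is a stretch of letters and was not tested for binding.

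Beside these carriers, 14 of 19 measured genes of the amino acid response were above 0 with a median of 0.20, 0 of them passed in limma's test, and in 8 of 19 both compost rats exceeded both control rats, against 12.4% of all probes. The list median was 0.086 without control replicate 1. Phgdh, the first enzyme of serine synthesis, was at 2.40 and 2.67 in control and 3.19 and 3.06 in compost (0.59 ± 0.20), and Asns, asparagine synthetase, at 1.22 and 2.06 against 2.42 and 2.13 (0.64 ± 0.34, and 0.22 without control replicate 1). Cth, which makes cysteine from cystathionine, was lower in both compost rats (-0.35 ± 0.18), and Trib3, an ATF4 target that feeds back on it, was too (-0.38 ± 0.23, outside the naming rule and given after its value was seen). Atf4 itself was at 5.46 and 5.70 against 5.38 and 5.83.

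The carriers of endosomes and lysosomes, which export histidine and peptides from these compartments in immune cells, were higher in both compost rats. Slc15a3 was at -2.38 and -2.45 in control and at -0.98 and -2.15 in compost. Compost replicate 1 stood far above the other three rats, and the difference of 0.85 ± 0.42 (-0.25 to 1.96) was 0.27 without that rat. Slc15a4 was at 0.14 and 0.21 against 0.49 and 0.44 (0.28 ± 0.17), and its second probe gave 0.51 ± 0.38, or 0.15 with normexp background correction, with overlapping groups.

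Markers of immune cells are set beside these values. Of 8 macrophage and dendritic cell markers 7 were above 0, with a median of 0.43 that was -0.04 without compost replicate 1. Their summed intensity, in multiples of the array's 75th percentile, was 19.0 and 14.3 in control and 26.7 and 17.1 in compost. All 7 B and plasma cell markers separated the groups upward, where 12.4% of all probes did. Their sums were 2.75 and 4.21 in control against 11.5 and 7.55 in compost. Ms4a1, or CD20, at -6.86 and -6.06, and Cr2, at -7.22 and -6.06, passed the background flag in 0 of 2 control rats and in 2 of 2 compost rats. They were thus kept through the compost group alone, which favours an upward separation. In compost, Ms4a1 was at -5.56 and -2.84 and Cr2 at -5.29 and -1.09, so that compost replicate 2 stood far above the other rats. The differences of 2.25 and 3.45 were 0.89 and 1.35 without that rat, and 0.51 and 1.25 with normexp background correction. The 7 T cell markers had a median of 0.03, which ranged from -0.45 without control replicate 2 to 0.49 without control replicate 1, and the T cell surface gene Cd2, named after its value was seen, had a difference of 1.60 ± 0.23 (0.48 with normexp background correction). The part of these cells in the carriers' values was not tested.

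**Figure D3:**
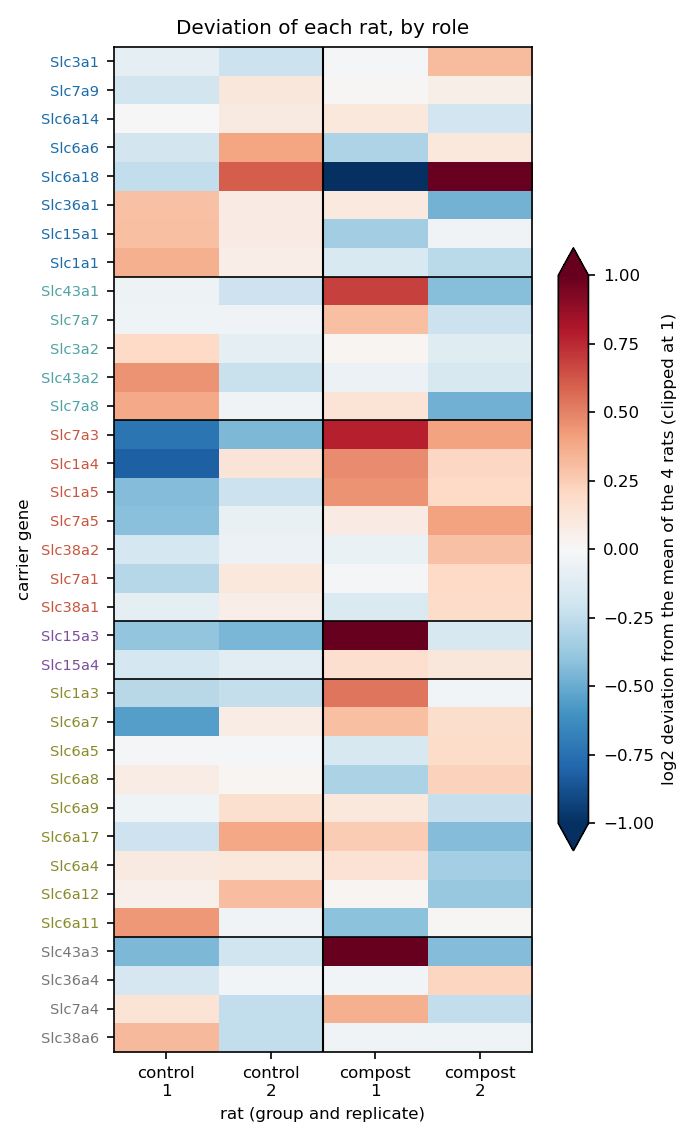
Deviation of each rat (columns) from the mean of the 4 rats for each of the 35 carriers (rows, grouped by role as in the plot of differences), in log2 units, with red above and blue below the mean and colours clipped at 1. Compost replicate 1 is the highest rat in 13 of 35 carriers (37.1%, against 27.4% of all probes), among them Slc15a3, Slc43a3 and Slc1a3.

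The carriers of neurotransmitters and osmolytes varied around 0, at 3 above and 6 below, with a median of -0.12 that was 0.047 without compost replicate 2. Slc1a3, the glutamate carrier of glia, was at -3.83 and -3.79 in control and -3.02 and -3.58 in compost, higher in both compost rats by 0.51 ± 0.25, and by 0.22 with normexp background correction. The proline carrier Slc6a7 was at -4.56 and -3.94 against -3.71 and -3.83, also above in both (0.48 ± 0.27), and at 0.18 with normexp background correction. The betaine carrier Slc6a12 was at -3.84 and -3.59 against -3.87 and -4.27, below in both compost rats by a margin of 0.03 (-0.36 ± 0.23). Though dim, Slc1a3, Slc6a7 and Slc6a12 were well above background on all 4 arrays. The difference of Slc6a12 was -0.27 with normexp background correction. The plot of background correction shows both differences of each carrier.

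Slc6a11, a carrier of the inhibitory transmitter GABA, was at -4.68 and -5.15 in control and at -5.52 and -5.10 in compost, with overlapping groups. It was well above background in both control rats and in neither compost rat, so that it was kept through the control group alone. Its difference of -0.40 ± 0.27 was -0.16 without control replicate 1 and is given as a description. Slc6a4, the serotonin carrier that clears the serotonin released by enterochromaffin cells, was at 1.79 and 1.80 against 1.84 and 1.36 (-0.19 ± 0.23), and its second probe gave -0.20 ± 0.29. In both of its probes compost replicate 2 was the low rat. Of 7 enteroendocrine markers 6 were above 0, with a median of 0.29, and their part in the value of Slc6a4 was not tested. The remaining carriers of this kind, Slc6a5 and Slc6a9 for glycine, Slc6a8 for creatine and the vesicle carrier Slc6a17, had differences of -0.18 to 0.02, and the probes of Slc6a8 had opposite signs, -0.09 and 0.08. Enteric neuron and glia markers had a median of -0.10, with 6 of 8 below 0, which was -0.44 without compost replicate 1 and 0.30 without compost replicate 2, and sums of 1.90 and 2.19 in control against 2.51 and 1.52 in compost.

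The 4 carriers with less settled roles had overlapping groups in the brightest probe of each. Slc43a3 was well above background in 1 rat of each group, at -5.48 and -5.23 against -3.96 and -5.47, and its difference of 0.64 ± 0.53 was -0.11 without compost replicate 1. Slc36a4 was at -3.32 and -3.17 against -3.17 and -2.93 (0.19 ± 0.20), the 3 probes of Slc38a6 gave -0.08, -0.20 and -1.01, and the orphan Slc7a4 had 0.11 ± 0.29. The Slc38a6 probe at -1.01 was well above background on 2 arrays and stood at -5.41 and -5.39 against -5.65 and -7.18. Both compost rats were lower there by a margin of 0.24, and the difference was -0.19 with normexp background correction.

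**Figure D4:**
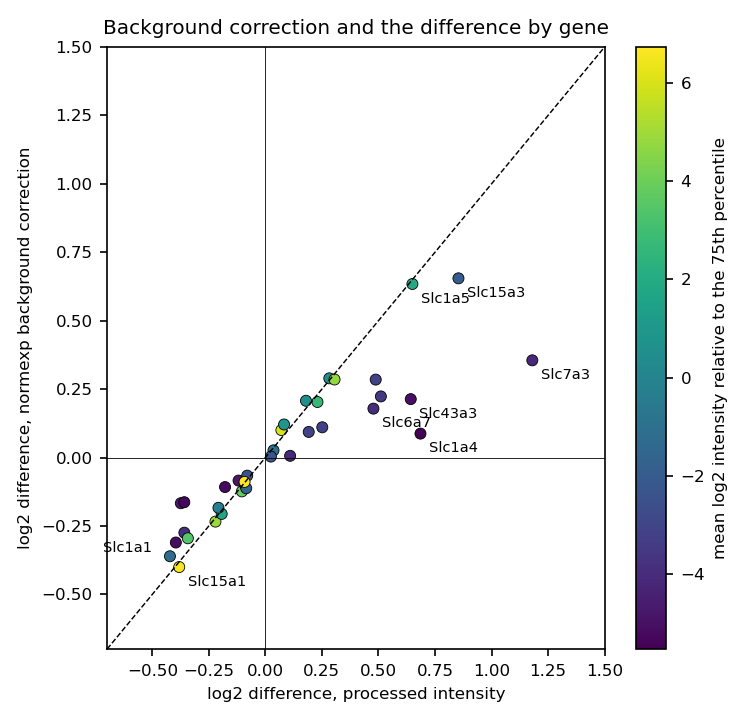
Log2 difference of each of the 35 carriers from the processed intensities (horizontal axis) and with normexp background correction (vertical axis), coloured by mean level. The dashed line marks equal values. All 35 keep their sign. In 13 the first difference is over 1.5 times the second, and their mean levels are -2.30 or lower. Slc1a5 and Slc15a1, which are brighter, lie close to the line.

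By family, the medians were 0.58 for the 4 kept Slc1a genes, 0.28 for the 3 Slc15a genes, 0.25 for the 3 Slc43a genes (-0.27 without compost replicate 1 and 0.81 without compost replicate 2), 0.11 for the 7 Slc7a genes, 0.10 for the 2 Slc3a genes (-0.0067 without control replicate 2), 0.04 for the 3 Slc38a genes, -0.09 for the 2 Slc36a genes and -0.18 for the 11 Slc6a genes. Differences between families were not tested. Slc1a held both directions, with Slc1a1 at -0.42 and the other three at 0.51 to 0.69, and its median was 0.16 with normexp background correction. Slc6a had 9 of 11 genes below 0, where the median over all kept probes was -0.02. In 1 of the 11 both compost rats were below both control rats, against 15.5% of all probes.

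Of the 54 carrier genes on the array, 19 were not kept. In 14 of them no array was well above background, including Slc7a11, the cystine and glutamate exchanger, Slc7a6, Slc7a2, and the glutamine carrier Slc38a5. Another 5, Slc15a2, Slc1a2, Slc36a2, Slc38a3 and Slc6a15, had 1 such array and lay just outside the limit. The kidney peptide carrier Slc15a2, for example, was at -5.01 in compost replicate 1, the array that passed, and at -7.27 to -7.68 in the other three rats. Slc1a4 and Slc43a3, just inside the limit with 2 arrays, spanned -6.35 to -5.07 and -5.48 to -3.96.

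Genes that work beside the carriers gave 0 calls in limma's test as well. Brush border and luminal peptidases had 9 of 13 genes below 0, a median of -0.14, and both compost rats below both control rats in 7 of 13, against 15.5% of all probes. That median was -0.041 without control replicate 2. They included aminopeptidase N, Anpep, at 7.20 and 6.89 against 6.38 and 6.22 (-0.75 ± 0.21), and neprilysin, Mme, at 3.60 and 3.48 against 2.14 and 2.91 (-1.02 ± 0.31). The peptidyl-dipeptidase Ace was at 0.95 and 0.45 against 0.20 and -0.15 (-0.67 ± 0.26). Meprin beta, Mep1b, and the gamma-glutamyl transferase Ggt1 were instead higher in both compost rats, at 0.37 and 0.28, both named after their values were seen.

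Cytosolic peptidases, which split the peptides that PepT1 brings in, had 6 of 10 genes below 0 and a median of -0.06, which was 0.10 without compost replicate 1, 0.0058 without control replicate 1 and -0.27 without compost replicate 2. Pepd, which splits off proline, was at 5.80 and 5.51 against 5.23 and 5.47 (-0.31 ± 0.21), Xpnpep1 differed by -0.36 ± 0.31 and Lap3 by -0.20 ± 0.24. Of the carriers' partners and neighbours 8 of 10 were below 0, with a median of -0.10. Slc9a3, the sodium and proton exchanger that restores the proton gradient PepT1 uses, was at 1.88 and 0.60 against 0.83 and -0.45, with overlapping groups (-1.05 ± 0.62). The scaffold Pdzk1 differed by -0.34 ± 0.28. Genes of glutamine, arginine and branched-chain amino acid metabolism had 11 of 20 below 0 and a median of -0.09, with both compost rats below in 6 of 20, against 15.5% of all probes. Among them were glutamate dehydrogenase, Glud1 (-0.35 ± 0.18), and ornithine aminotransferase, Oat (-0.39 ± 0.25). Enterocyte markers had summed intensities of 2538 and 2150 in control and 1547 and 2103 in compost. The sums of the cytosolic peptidases were 400 and 360 in control and 308 and 404 in compost, with compost replicate 2 the highest rat. The part of enterocytes in the lists was not tested.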

How the data were processed

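The authors deposited 1 scanner file per array from Agilent Feature Extraction 9.1.3.1, per the file headers and the submitters' processing notes. It holds a processed spot intensity, detrended, background-subtracted and not scaled between arrays, with raw mean and local background intensities and flags (other values). Intensities in the authors' deposited value table differed from it by at most 0.497%.

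Outlier spots were left out, log2 intensities were averaged per probe, and the array's 75th percentile over gene probes was subtracted. Compost was compared with control in limma 3.58.1 (R 4.3.3; lmFit, eBayes, two-sided, Benjamini-Hochberg over 28415 probes, threshold 0.05); ± is the model's SE. A gene was represented by its brightest kept probe. Names came from the files. The fits were tested on simulated data. Alternatives were another background correction (normexp with an offset of 50), other scalings, filters, variance models, probe and member choices, and leaving out each rat.

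Genes named with values were a set of dietary carriers, the 4 smallest p per family, genes with groups at least 0.5 apart and the 3 smallest p per other list, of which some are not reported here. Members, lists and roles were chosen with earlier results of these data known. The array number limits the precision.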

Additional observations from a re-analysis of the deposited data

How the results depend on the processing

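In no setting did a carrier pass limma's test, and the lowest adjusted p of a carrier in any setting was 0.477. Over all probes, 0 passed in the reported fit, 1 with normexp background correction and 0 to 2 without 1 rat, the 2 without control replicate 2. Carriers with both compost rats below both control rats numbered 6 with normexp background correction, 5 without a filter on dim probes and 7 to 13 without 1 rat, and carriers with both above numbered 11 to 16 without 1 rat, since 3 arrays separate more readily than 4. The median over carriers was -0.038 without a filter and -0.0022 to 0.088 without 1 rat. The Slc1a median was 0.16 with normexp background correction. The Slc6a median was -0.11 with normexp background correction, -0.083 with quantile scaling, -0.11 without a filter and -0.11 where all 4 arrays had to be well above background. The Slc15a median was 0.57 without a filter and 0.40 with the mean of a gene's probes, and the Slc36a median was 0.19 with all 4 arrays well above background. Without 1 rat the medians spanned -0.27 to 0.81 for Slc43a, -0.0067 to 0.21 for Slc3a, -0.077 to 0.20 for Slc38a, -0.20 to -0.019 for Slc6a and 0.077 to 0.33 for Slc7a. The differences of 18 carriers turned without 1 rat, over these ranges: Slc38a1 -0.13 to 0.20, Slc38a6 -0.37 to 0.20, Slc3a2 -0.25 to 0.046, Slc43a1 -0.30 to 0.81, Slc43a2 -0.56 to 0.12, Slc43a3 -0.11 to 1.40, Slc6a14 -0.23 to 0.064, Slc6a17 -0.52 to 0.17, Slc6a18 -1.53 to 0.81, Slc6a4 -0.43 to 0.047, Slc6a5 -0.15 to 0.20, Slc6a6 -0.49 to 0.079, Slc6a8 -0.36 to 0.18, Slc6a9 -0.29 to 0.050, Slc7a1 -0.019 to 0.38, Slc7a4 -0.19 to 0.41, Slc7a7 -0.17 to 0.34 and Slc7a9 -0.077 to 0.22. None of the 35 turned under the other settings. The reported fit did not pair rats by replicate number. Deviations of rats with equal numbers correlated at -0.036, over probes that are not independent, which cannot exclude a pairing. With the replicate block 0 probes passed. Signal over background was limited in 6 of 35 carriers, which were well above background on under 4 arrays.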
